A study of Rattus norvegicus with 6 samples.

Results

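Neural crest specifiers are transcription factors that act in the embryo at the border of the neural plate and in the migrating crest cells that leave it. Crest cells of the head form much of the facial skeleton and the front of the skull vault, besides pigment cells, peripheral glia and autonomic neurons, whereas limb bones come from mesoderm. Among the genes described here, the AP-2 factors Tfap2a, Tfap2b and Tfap2c and the paired box factors Pax3 and Pax7 act early, at the plate border, and Myc keeps crest precursors dividing. Foxd3, Sox8, Sox10 and Ets1 act in the specified and migrating crest, Sox8 and Sox10 together with Sox9 as the SoxE factors. The 10 genes were listed with earlier results of these data known and taken by symbol from a table of 30498 rat genes. All 10 were found, on 7 chromosomes.

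The table held RNA sequencing counts of cultured rat mesenchymal stem cells (MSC, the fibroblast-like stromal cells grown out of marrow). The 3 libraries named rcMSC came from cranial bone marrow and the 3 named rbMSC from marrow of femurs and tibias, all of wild-type genotype and with no treatment given in the labels. Rat strain, age, passage, the number of animals and the skull bones used are not stated in the labels. Totals ran from 21340290 to 26928079 counts per library. In each group, pairs of libraries were compared by chi-square. Pairs without rcMSC replicate 3 varied 2.69 to 3.16 times as much as counting alone gives, and the pairs with it 42.0 to 42.8 times, so that results are also given without this library where it moves them. Levels are counts scaled to the library size (CPM) after TMM scaling, as mean ± SD of 3 libraries, and levels of different genes are compared only per kilobase of gene length (RPKM).

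Beside the labelled cell type, 5 MSC surface markers were looked at, and all were read in every library. They summed to 3598 to 3637 CPM in rbMSC and 2574 to 3087 in rcMSC. Itgb1 alone was at 1961 ± 33.3 and 1458 ± 203 CPM. That these genes were read does not by itself establish the cell type. RNA of macrophages and other blood cells was present as well. The 12 markers of these cells summed to 605 to 621 CPM in rbMSC and 310 to 398 in rcMSC, with Ptprc (CD45) at 136 ± 4.88 and 45.6 ± 9.49 CPM, while the T and B cell genes Cd3e and Cd79a had at most 5 counts in either group. In bulk samples, a smaller share of a cell type and less RNA of a gene per cell cannot be told apart.

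Of the 10 genes, 5 had enough counts to be tested. Tfap2b and Myc rose in rcMSC, Tfap2a and Ets1 fell, and Pax3 did not pass. The other 5 were near or at 0: Tfap2c had 3 to 8 counts per library in rbMSC and none in rcMSC, Sox8 had 7 to 23 and 3 to 6, Sox10 had 1 count in each group, and Pax7 and Foxd3 had no count in any library. The test was edgeR's quasi-likelihood test with Benjamini-Hochberg adjustment over the 14836 genes tested and a threshold of 0.05. At this threshold 22.6% of all genes tested were higher in rcMSC and 23.2% lower, 45.8% together. The 3 libraries of one group lay wholly above those of the other for 4 of the 5 tested genes, and for 57.1% of all genes tested. Tfap2b passed the low-count filter only through its rcMSC counts, so the number called among those that passed says nothing about the group of 10. Nothing in the labels ties libraries to separate animals or cultures, and the p-values measure the spread between these libraries.

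**Figure D1:**
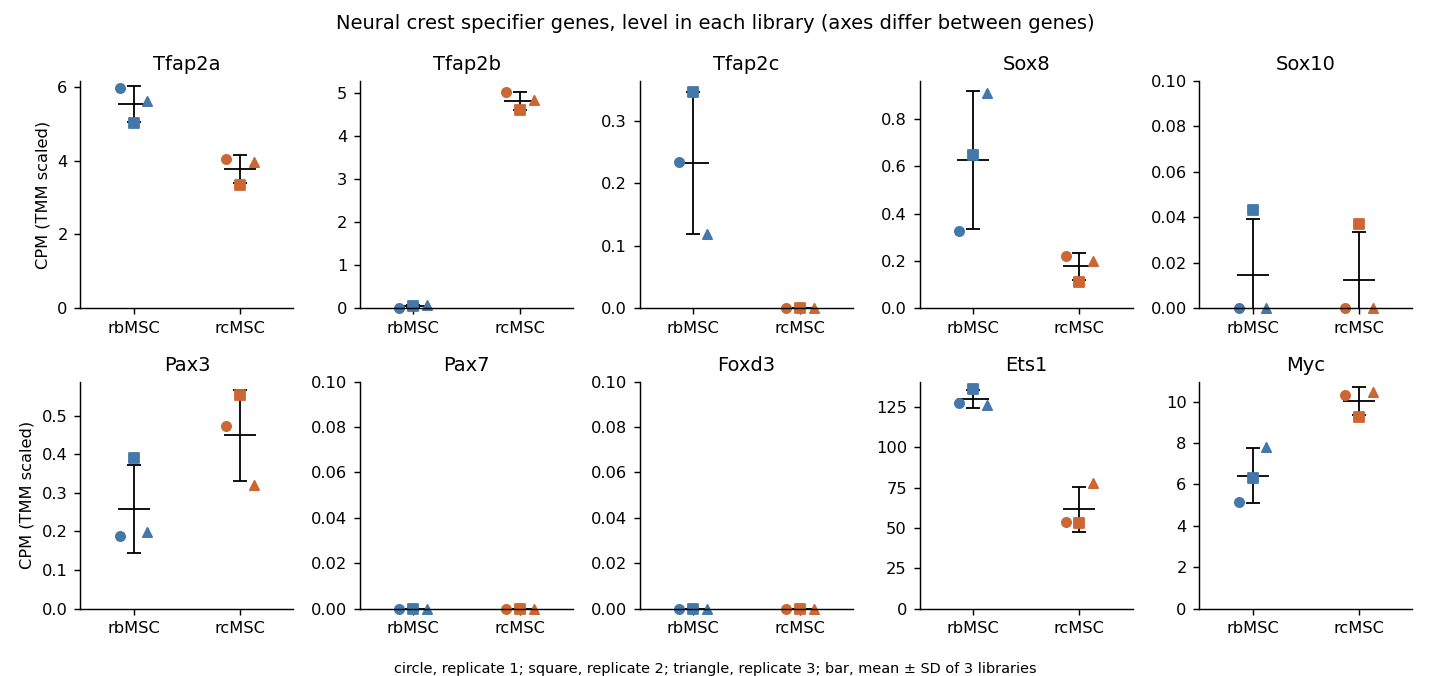
Level of each of the 10 genes in each library, in TMM-scaled CPM on a linear axis from 0 that differs between genes. Points are libraries, and bars give the mean ± SD of the 3 libraries of a group. Tfap2b was near 0 in all rbMSC libraries and at 4.60 to 5.03 CPM in rcMSC, Ets1 and Tfap2a were lower in rcMSC, Myc was higher, and Pax7 and Foxd3 were at 0.

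Tfap2b (ENSRNOG00000011823, plus strand of chromosome 9, 21786258 to 21814520 in mRatBN7.2) encodes AP-2 beta, a factor of facial crest, kidney and sympathetic neurons. Its rbMSC libraries (replicates 1 to 3) held 0, 1 and 2 counts, and its rcMSC libraries 138, 125 and 121. All 3 rcMSC libraries were far above all 3 rbMSC libraries, with little spread, at 4.82 ± 0.212 CPM. With only 3 rbMSC counts in all, the size of the change is set by counting: the pooled ratio was 112, with an exact binomial 95% interval of 38.1 to 546 that covers counting error only. The fitted log2 fold change was 6.65 (SE 0.39, adjusted p in edgeR = 4.66e-07), exceeded by 9 of the 14836 genes tested. This fitted value depends on the prior count and was 7.46 without rbMSC replicate 3, the library with 2 of the 3 counts.

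Tfap2a (ENSRNOG00000015522, plus strand of chromosome 17, 24024432 to 24047507) encodes AP-2 alpha, which is needed for closure of the cranial neural tube and for the facial skeleton. Its levels were 5.99, 5.02 and 5.62 CPM in rbMSC and 4.04, 3.35 and 3.96 in rcMSC. The lowest rbMSC library was above the highest rcMSC library, but the difference was small, at a log2 fold change of -0.55 (SE 0.15, adjusted p in edgeR = 0.0143). The call was lost without rbMSC replicate 1 (adjusted p = 0.0621) and without rcMSC replicate 2 (adjusted p = 0.0571).

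Tfap2c (ENSRNOG00000005246, plus strand of chromosome 3, 161315031 to 161322995) encodes AP-2 gamma, a factor of trophoblast, germ cells and epidermis. It had 5, 8 and 3 counts in rbMSC and none in rcMSC, at least 6.09-fold lower in rcMSC when 3 counts over the group stand for the 0. It was below the low-count filter. In a fit without that filter, where 31.7% of 21671 genes were called and 16.1% were called lower, its edgeR adjusted p was 0.00725.

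The make-up of the AP-2 family differed between the groups. Per kilobase, Tfap2a made up 87.6% to 94.9% of the summed AP-2 level in the rbMSC libraries. In the rcMSC libraries Tfap2b made up 60.2% to 62.9% and Tfap2a 37.1% to 39.8%, and Tfap2b stood at 1.51 to 1.70 times Tfap2a within the same library. The summed level of the family was 1.31 ± 0.0732 RPKM in rbMSC and 2.12 ± 0.137 in rcMSC, without overlap between the groups, and this sum was not tested. The other AP-2 genes were silent or nearly so. Tfap2d, which lies next to Tfap2b at a distance of 45.5 kb, had no count in any library, and Tfap2e had 1 count in rbMSC.

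**Figure D2:**
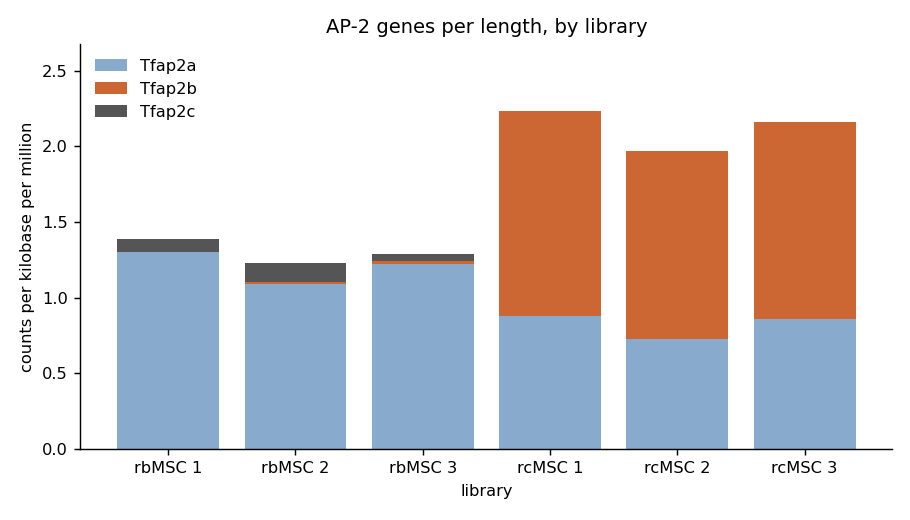
Level of Tfap2a, Tfap2b and Tfap2c in RPKM, stacked for each library. Tfap2a fills nearly the whole bar in rbMSC, and Tfap2b is the larger part of the taller rcMSC bars, at 60.2% to 62.9% of the family.

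Of 4 genes tested whose proteins act as cofactors of AP-2, 2 rose and 1 fell, where 22.6% of all genes tested rose and 23.2% fell. Their median log2 fold change was 0.36 against 0.02 over all genes tested. Kctd1 and Kctd15, which both repress AP-2 activity, rose from 31.9 ± 0.805 to 58.6 ± 4.63 CPM and from 24.0 ± 2.22 to 36.3 ± 1.96 CPM (log2 fold changes 0.87 and 0.60, adjusted p in edgeR = 8.29e-06 and 0.000313). Cited2, a coactivator of AP-2, fell from 52.0 ± 2.99 to 27.0 ± 2.77 CPM (log2 fold change -0.95, adjusted p in edgeR = 1.38e-05). The coactivator Crebbp was at 0.12 (adjusted p in edgeR = 0.102).

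Tfap2 genes are also epidermal factors, so epithelial markers were read beside them. Of 9 epithelial and keratinocyte markers listed, Krt14 and Trp63 were not counted, so nothing is known here of these 2. The other 7 summed to 6.18 to 7.60 CPM in rbMSC and 3.13 to 4.16 in rcMSC. Of the 2 tested, Cdh1 fell (log2 fold change -1.86, adjusted p in edgeR = 2.95e-05) and Krt8 was at 0.36 (adjusted p in edgeR = 0.27). Over all genes tested, 22.6% rose and 23.2% fell. The keratin Krt5 had no count in rbMSC and 4 in rcMSC, and Epcam had 6 and 5.

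Pax3 (ENSRNOG00000013670, minus strand of chromosome 9, 79568634 to 79664042), a paired box factor of the plate border, melanocyte precursors and muscle precursors, was read at a very low level in both groups. It had 4, 9 and 5 counts in rbMSC and 13, 15 and 8 in rcMSC. The groups overlapped when scaled, at 0.258 ± 0.114 and 0.449 ± 0.118 CPM, and the log2 fold change of 0.79 (SE 0.46) did not pass (adjusted p in edgeR = 0.187). Its relative Pax7 (ENSRNOG00000018739, minus strand of chromosome 5, 151999092 to 152097979), known also as the factor of muscle satellite cells, had no count. Foxd3 (ENSRNOG00000066522, plus strand of chromosome 5, 114335408 to 114336817), a forkhead factor that holds crest cells multipotent, had no count either. A count of 0 allows up to 3 counts over a group, which is 0.0430 CPM in rbMSC and 0.0377 in rcMSC, for counting error only. Of all 30498 genes in the table, 8827 had no count.

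The promoters of these 3 genes are shown because they are the members at or near 0 for which a sequence was at hand (RefSeq, build GRCr8, 250 bases before to 50 after the start of the gene, 5′ to 3′ on the strand of the gene). Capitals mark CACGTG, the E-box bound by MYC with its partner MAX, which reads the same on both strands. The windows are chr9:87112482-87112781 (minus strand) for Pax3, chr5:157381072-157381371 (minus strand) for Pax7 and chr5:119450282-119450581 (plus strand) for Foxd3.
Pax3: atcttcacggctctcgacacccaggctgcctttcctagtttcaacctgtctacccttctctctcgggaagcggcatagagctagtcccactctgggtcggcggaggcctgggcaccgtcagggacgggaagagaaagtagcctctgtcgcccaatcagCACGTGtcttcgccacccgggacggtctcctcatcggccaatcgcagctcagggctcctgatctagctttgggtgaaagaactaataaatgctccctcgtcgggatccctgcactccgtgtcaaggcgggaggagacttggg
Pax7: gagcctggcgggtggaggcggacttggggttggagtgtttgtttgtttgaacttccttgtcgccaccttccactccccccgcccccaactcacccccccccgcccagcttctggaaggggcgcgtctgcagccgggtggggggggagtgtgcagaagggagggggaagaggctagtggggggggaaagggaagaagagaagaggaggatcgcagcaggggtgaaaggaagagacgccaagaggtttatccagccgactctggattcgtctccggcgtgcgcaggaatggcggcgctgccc
Foxd3: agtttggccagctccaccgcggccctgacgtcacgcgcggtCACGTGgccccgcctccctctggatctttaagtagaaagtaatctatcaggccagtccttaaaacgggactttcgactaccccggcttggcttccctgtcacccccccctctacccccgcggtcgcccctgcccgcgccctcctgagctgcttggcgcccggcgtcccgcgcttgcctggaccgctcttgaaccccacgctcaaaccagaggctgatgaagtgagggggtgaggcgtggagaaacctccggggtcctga
The Pax3 window holds the motif once, beginning 92 bases before the start, and the Foxd3 window once, beginning 209 bases before it. The Pax7 window holds none, and 6.42% of 33469 promoter windows of this length hold at least 1. The AP-2 motif GCCNNNGGC, also the same on both strands, is in none of the 3 windows and in 15.1% of all. The windows held 19 CpG pairs in Pax3, 17 in Pax7 and 25 in Foxd3 against a median of 7 over all windows. These stand at the 75.8, 72.5 and 84.8 percentiles of all windows. A match describes letters only.

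Muscle genes that Pax3 and Pax7 are known to switch on were almost silent. Of 9 myogenic genes 3 were tested, of which 2 rose and none fell, with a median log2 fold change of 1.82. Over all genes tested, 22.6% rose and 23.2% fell. The muscle determination factors Myod1, Myf5 and Myog had 0, 1 and 0 counts in rbMSC and 0, 6 and 8 in rcMSC. Of the 2 that rose, 1 passed the filter through rcMSC only. The other was Msc (log2 fold change 1.82, adjusted p in edgeR = 0.000296), a repressor of myogenic factors. The receptor gene Met was at 0.25 (adjusted p in edgeR = 0.0769).

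Sox8 (ENSRNOG00000018841, minus strand of chromosome 10, 14584829 to 14589818) had 7, 15 and 23 counts in rbMSC and 6, 3 and 5 in rcMSC. The groups did not overlap after scaling, at 0.629 ± 0.292 and 0.176 ± 0.0578 CPM, although rbMSC replicates varied widely. The pooled ratio was 3.67 in favour of rbMSC, with an exact binomial 95% interval of 1.98 to 7.24. It was below the low-count filter. Without the filter its log2 fold change was -1.82 (adjusted p in edgeR = 0.0154). Sox10 (ENSRNOG00000011305, minus strand of chromosome 7, 110725274 to 110735544), the factor that defines crest-derived glia and pigment cells, had 1 count in rbMSC replicate 2 and 1 in rcMSC replicate 2. The SoxE factor of these cultures was Sox9, a cartilage and crest regulator, which made up 98.6% to 99.7% of the summed SoxE level per kilobase in every library. Sox9 fell slightly, from 75.5, 75.6 and 82.7 CPM in rbMSC to 65.8, 64.9 and 63.5 in rcMSC (log2 fold change -0.27, adjusted p in edgeR = 0.00517).

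Genes of the lineages that Sox10 governs were read from a list each, beside the 22.6% of all genes tested that rose and the 23.2% that fell. Of 11 genes listed for Schwann cells and glia 6 were tested, of which 4 fell and Foxd1 rose, with a median of -0.66 that includes Foxd1. S100b and the myelin genes Pmp22 and Mbp fell (log2 fold changes -1.04, -0.80 and -0.81, adjusted p in edgeR = 3.37e-06, 0.000278 and 0.00918), as did Egr2. Foxd1, a forkhead factor known also from mesenchyme, had 9 counts in rbMSC and 531 in rcMSC and passed the filter through rcMSC only. The glial genes Cdh19 and Gfap had 0 and 3 counts in rbMSC and 0 and 1 in rcMSC. Of 8 melanocyte genes 4 were tested, with a median of -0.02. Tyrp1 fell (log2 fold change -2.79, adjusted p in edgeR = 8.82e-05), Mlana rose, and the enzymes Tyr and Dct had no count. Mlana overlapped between the groups and its edgeR adjusted p of 0.0343 rose to 0.0768 to 0.102 when any 1 library other than rcMSC replicate 3 was left out, and to 0.092 without the low-count filter. Of 9 autonomic neuron genes 2 were tested. Gata3, a zinc finger factor also found outside neurons, rose from 6.46 ± 0.735 to 38.3 ± 1.27 CPM (log2 fold change 2.56, adjusted p in edgeR = 1.93e-08), and Gata2 fell. Without rbMSC replicate 1 or 2 Gata2 did not pass (adjusted p in edgeR = 0.0502 and 0.0511). The sympathetic regulator Phox2a and the enzyme Dbh had no count.

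Ets1 (ENSRNOG00000008941, plus strand of chromosome 8, 31045945 to 31168010), an ETS factor of cranial crest that is also strong in lymphoid, endothelial and stromal cells, was the most abundant of the 10 genes per kilobase. Its levels were 127, 136 and 126 CPM in rbMSC and 53.5, 53.3 and 77.6 in rcMSC. No rcMSC library reached the rbMSC range, and rcMSC replicate 3 stood above the other two. The log2 fold change was -1.08, or 2.11-fold lower in rcMSC (SE 0.14, adjusted p in edgeR = 0.000417), and -1.28 without rcMSC replicate 3. Macrophage and blood cell markers fell with it, 6 of 9 tested and none higher, where 22.6% of all genes tested rose and 23.2% fell. Their summed level was likewise highest among rcMSC in replicate 3, at 398 CPM against 320 and 310. The 8 endothelial markers summed to 15.4 to 17.9 CPM in rbMSC and 17.1 to 19.6 in rcMSC, with 1 of 7 tested higher (Tek) and 1 lower (Tie1). Emcn, another endothelial marker, had 0 counts in rbMSC and 1 in rcMSC. The part of these cells in the Ets1 result was not tested.

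The other ETS genes went in both directions. Of 13 tested, 3 rose and 6 fell, with a median log2 fold change of -0.17. These are 23.1% and 46.2%, against 22.6% and 23.2% over all genes tested. Ets2, the closest relative of Ets1, went the other way, from 18.5 ± 1.08 to 30.8 ± 0.892 CPM (log2 fold change 0.73, adjusted p in edgeR = 3.65e-05). Fli1, the neighbour of Ets1 at 95.5 kb on the opposite strand, fell by 0.47 on the log2 scale (adjusted p in edgeR = 0.00298). Etv4, an ETS gene induced by FGF signalling, and Erg fell by 1.11 and 0.52 (adjusted p in edgeR = 0.00303 and 0.000391).

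Myc (ENSRNOG00000004500, plus strand of chromosome 7, 93593705 to 93598630) encodes the basic helix-loop-helix factor that drives growth and ribosome production. Its levels were 5.15, 6.32 and 7.80 CPM in rbMSC and 10.3, 9.28 and 10.5 in rcMSC. All rcMSC libraries lay above all rbMSC libraries, and the rbMSC libraries varied more. The log2 fold change was 0.64, or 1.56-fold (SE 0.15, adjusted p in edgeR = 0.00686). Of its family, Mycl fell (log2 fold change -0.92, adjusted p in edgeR = 0.0126, or 0.0606 without rbMSC replicate 3) and the crest gene Mycn was at -0.13 (adjusted p in edgeR = 0.756). Per kilobase, Myc made up 62.3% to 74.7% of the summed Myc family level in rbMSC and 81.7% to 86.3% in rcMSC.

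Of 11 MYC partners and antagonists tested, 2 rose and 1 fell, with a median of 0.05. That is 18.2% and 9.09%, below the 22.6% and 23.2% over all genes tested. Max, the obligate partner of MYC, rose from 44.6 ± 3.08 to 64.3 ± 7.87 CPM (log2 fold change 0.53, adjusted p in edgeR = 0.00129), and Mxi1, which competes with MYC for MAX, rose by 0.89 (adjusted p in edgeR = 0.000271). Of 19 genes known as MYC targets, 12 rose and 1 fell, with a median of 0.25. The largest rises were in Srm (spermidine synthase), Npm1 (nucleophosmin of the nucleolus) and Ppat (purine synthesis), with log2 fold changes of 0.73, 0.66 and 0.55 (adjusted p in edgeR = 0.000337, 5.11e-05 and 0.000571). Ldha, a glycolytic enzyme, was the 1 that fell (-0.30, adjusted p in edgeR = 0.00472). Genes of the cell cycle were lower: of 19 tested, 14 fell and none rose, with a median of -0.95, and they summed to 656 to 658 CPM in rbMSC and 366 to 425 in rcMSC. Cdc20, Plk1 and Mki67 fell most among the abundant ones (-1.59, -1.42 and -1.30, adjusted p in edgeR = 6.6e-06, 0.000119 and 6.17e-07).

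**Figure D3:**
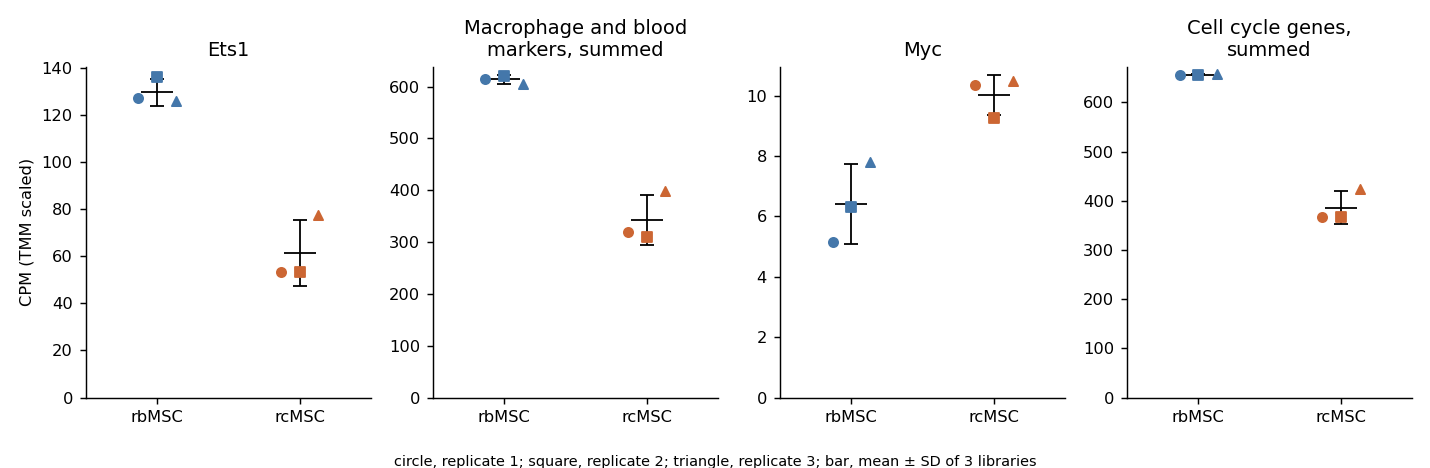
Level of Ets1 and Myc in each library beside the summed levels of macrophage and blood cell markers and of cell cycle genes, in TMM-scaled CPM from 0, with mean ± SD of 3 libraries per group. Ets1 and both sums were lower in rcMSC and highest there in replicate 3, and Myc was higher in rcMSC.

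Within a group, the per-kilobase order of the 10 genes put Ets1 first and Myc second in both groups, at 24.1 ± 1.05 and 2.75 ± 0.569 RPKM in rbMSC and 11.4 ± 2.60 and 4.29 ± 0.281 in rcMSC. The third was Tfap2a in rbMSC (1.21 ± 0.107 RPKM) and Tfap2b in rcMSC (1.30 ± 0.0570), followed there by Tfap2a (0.823 ± 0.0821) without overlap. Below these, Sox8, Pax3 and Tfap2c overlapped with their neighbours in the order in rbMSC, at 0.194 to 0.0862 RPKM. In rcMSC Pax3 (0.173 ± 0.0456) stood above Sox8 (0.0543 ± 0.0178). Among the genes tested, Ets1 was at the 86.4 percentile of level in rbMSC and the 70.2 percentile in rcMSC, and Tfap2b reached the 22.7 percentile in rcMSC.

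**Figure D4:**
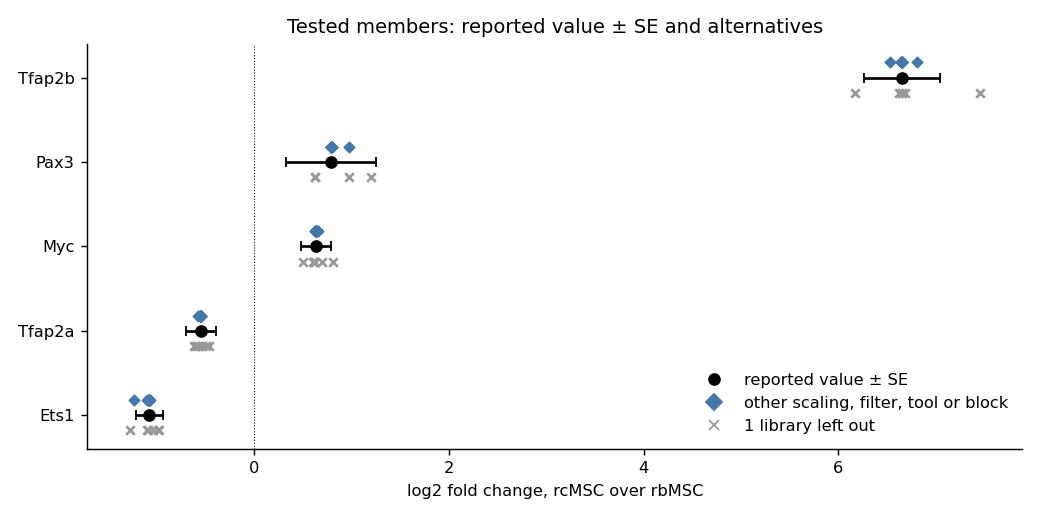
Log2 fold change of rcMSC over rbMSC for the 5 genes tested: black, the reported value ± SE; blue diamonds, another scaling, filter, tool or the replicate block; grey crosses, 1 library left out. No gene changed sign, and the value of Tfap2b moved most, from 6.17 to 7.46 with a library left out.

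The rest of the neural crest programme went in both directions, as did all genes tested, of which 22.6% rose and 23.2% fell. Of 11 neural plate border factors tested, 5 rose and 2 fell, with a median of 0.24. Of the 5 that rose, 4 reached the low-count minimum in rcMSC libraries only, Zic1, Zic2 and Zic5 among them, so the count and median describe the genes that passed the filter and not the list. Zic1, Zic2 and Zic5, zinc finger factors of the plate border, rose by 6.91, 6.46 and 6.09 on the log2 scale from 7 to 11 counts over the rbMSC libraries, and the repressors Prdm1 and Hes1 fell by 2.13 and 0.53 (adjusted p in edgeR = 1.4e-06 and 0.00692). Of 16 other crest specifiers, 4 rose and 4 fell, with a median of -0.14. At 25% in each direction this was near the shares over all genes tested. Without rcMSC replicate 3 the numbers were 5 and 7. Sox6, a SoxD factor, and the nuclear receptor Nr2f1 rose by 2.87 and 2.52 (adjusted p in edgeR = 2.05e-06 and 8.58e-08), while the SoxD relative Sox5 and the inhibitor Id3 fell by 2.13 and 1.17 (adjusted p in edgeR = 5.53e-05 and 0.000226). The classical crest specifiers Snai1 and Snai2 were at -0.41 and 0.29 (adjusted p in edgeR = 0.195 and 0.0966), and Twist1 rose by 0.45 (adjusted p in edgeR = 0.000893).

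Of 10 factors of cranial crest mesenchyme tested, 7 rose and none fell, with a median of 0.89, and of these Alx1 passed the filter through rcMSC only. The shares over all genes tested were 22.6% and 23.2%. Alx1, Six2 and Alx4, homeobox factors of the facial and skull mesenchyme, rose by 7.07, 5.18 and 4.24 on the log2 scale (adjusted p in edgeR = 4.66e-09, 1.18e-09 and 2.51e-07). Of 9 surface and signalling genes of migrating crest cells tested, 4 fell and none rose, with a median of -0.49. Macrophage and blood cell markers fell too, 6 of 9 tested, and the part of those cells in this list was not tested. The integrin Itga4, the cadherin Cdh6 and the endothelin receptor Ednrb fell by 2.26, 2.24 and 1.97 (adjusted p in edgeR = 1.28e-08, 8.01e-05 and 0.000159), and the low-affinity neurotrophin receptor Ngfr, with 8, 8 and 5 counts in rbMSC and 17, 21 and 115 in rcMSC and past the filter through rcMSC only, was at 2.69 (adjusted p in edgeR = 0.0507). The number called higher in this list was 1 under several alternatives, DESeq2, voom and the replicate block among them, and without rcMSC replicate 3 the numbers were 1 higher and 6 lower.

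**Figure D5:**
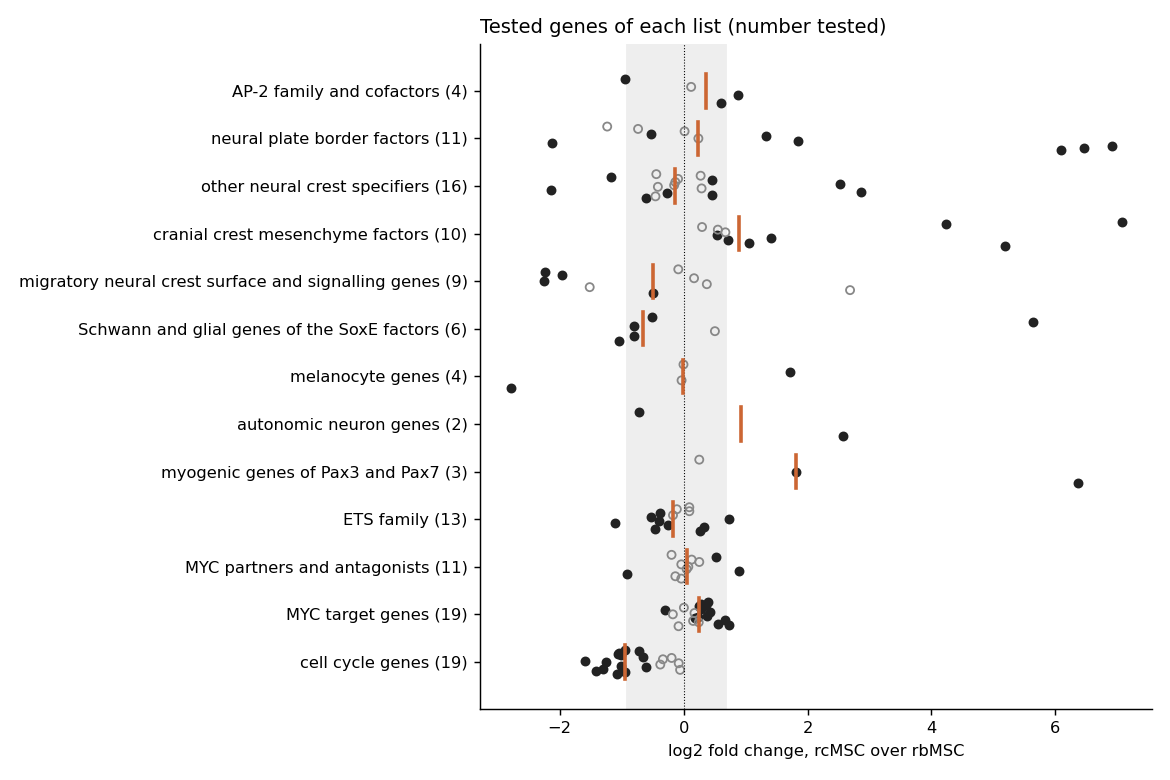
Log2 fold change of rcMSC over rbMSC for each tested gene of the crest, lineage, ETS, MYC and cell cycle lists, with the number tested in brackets. Filled points passed the adjusted p threshold, open points did not, orange lines are list medians, and the grey band spans the 10th to the 90th percentile of all genes tested (-0.92 to 0.69). Plate border and cranial mesenchyme factors reached 6.91 and 7.07, while cell cycle genes had a median of -0.95.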

How the data were processed

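The authors deposited raw, unscaled read counts for each gene, made, per the labels' protocols, by trimming paired reads of 150 nt with Trim Galore 0.6.7 and Trimmomatic 0.39, mapping them to mRatBN7.2 with STAR 2.7.9a and counting with featureCounts 2.0.1. The submitters' processing notes also name DESeq2 1.20.0. How strand and multiply mapped reads were handled is not stated in the labels, so overlapping or near-identical genes cannot be told apart. Gene length in bases is, per the file headers, another column of the deposited table.

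The 10 members and all gene lists were chosen with earlier results of these data known. Of 209 distinct list symbols 199 were used, leaving out Ep300, which names 2 rows, and symbols not matched. Libraries were grouped by title. The test was edgeR 4.0.16 (R 4.3.3) with TMM scaling, its default low-count filter, robust dispersions and p-values adjusted (Benjamini-Hochberg) over all genes kept, at 0.05. It was run on simulated data as well. These had the same dispersion for all genes and no outlying library, so they cannot vouch for the calls made here. SE is the fold change over the square root of F. Of each list, up to 3 genes that passed with the largest change in each direction and a mean log2 CPM not under 0 were to be named, or the gene with the smallest p where none passed; other names were chosen after their values were seen. Alternatives were other scalings and filters, DESeq2 1.42.0, voom in limma 3.58.1, plain instead of robust dispersions, a replicate block, and leaving out 1 library at a time.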

Additional observations from a re-analysis of the deposited data

How the results depend on the processing

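Under all alternatives run, Tfap2b, Myc and Ets1 kept their direction and their call. No tested member and no gene named by the rule for each list changed direction. Other genes named here are not covered by this. Mycn, for one, was at 2.25 CPM in rbMSC replicate 1 but 1.17 and 1.19 in replicates 2 and 3, against a mean of 1.39 in rcMSC. The number of members called higher was 2 throughout. The number called lower, 2 as reported, was 4 without the low-count filter, which adds Tfap2c and Sox8, and 1 to 3 with a library left out. Sox8 passed the filter and was called lower without rbMSC replicate 1, rcMSC replicate 1 or rcMSC replicate 3 (edgeR adjusted p = 0.011, 0.0341 and 0.00588), and was not called without rcMSC replicate 2 (0.0565). Of the recomputed values of the tested members and the genes named by the rule, 945 stayed on the same side of the threshold as the reported value and 25 no longer passed it. Apart from Pax3 these genes had all passed as reported, so calls gained by other genes are not counted there. Over all genes, 2542 to 4512 were higher and 2794 to 4558 lower with a library left out, the most without rcMSC replicate 3, and 4402 and 4387 with voom. Same-numbered libraries of the groups did not deviate together (correlations -0.03, 0.02 and -0.05), so the numbers were not taken to pair them. With the replicate block, 3046 genes were higher and 3251 lower, and the member calls were 2 and 2. Depth limits the genes near 0: 1 count is worth 0.0364 to 0.0468 CPM.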

Other observations

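Over the 6 libraries, the genes whose log2 CPM followed Tfap2b most closely were Nptx1, Irx5 and Gata3 (Pearson r of 0.9996, 0.9993 and 0.9992), and those nearest to Ets1 were Mical2, Gpr153 and Afap1l2 (0.9997, 0.9993 and 0.9992). With 2 groups of 3 libraries such values follow mainly from the difference between the groups, and 185 and 202 of 10924 genes had an r above 0.99 with Tfap2b and Ets1. Pkhd1, the next gene after Tfap2b at 735 kb, was at 0.882 ± 0.128 CPM in rbMSC and 2.88 ± 1.62 in rcMSC (log2 fold change 1.69, edgeR adjusted p = 0.00706).

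Of 3 neuron markers tested, 1 was higher (Syt1) and 2 lower (Tubb3 and Map2) in rcMSC. Over all genes tested, 22.6% were higher and 23.2% lower. The calls of Syt1 and Map2 were each lost under several alternatives. Of 5 MSC markers tested, Cd44 and Eng were higher and Thy1, Itgb1 and Nt5e lower, where 45.8% of all genes tested were called in either direction.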
